A study of Mus musculus with 6 samples.

Results

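The Kruppel-like factors (KLFs) are zinc-finger transcription factors, and 10 of their genes were examined on 6 arrays of mouse organoids: *Klf2*, *Klf3*, *Klf4*, *Klf5*, *Klf6*, *Klf7*, *Klf9*, *Klf10*, *Klf13* and *Klf15*. Every non-control probe carrying one of these names was taken, which gave 13 of 55681 probes for 10 of 34298 gene names. *Klf13* had 3 probes, *Klf3* had 2 and each of the others had 1. Organoids were grown from the esophagus and from the stomach corpus of mice 1, 2 and 4, so each tissue has 3 arrays and each mouse gave 1 array of each tissue. All are labelled as controls at passage 0, and the harvest was on day 8, with 1 exception, the stomach culture from mouse 4, taken on day 7. The methods list wild-type C57BL/6 females beside several reporter strains and do not say which mice gave these organoids. Both media held EGF, noggin, FGF-10, N-acetylcysteine, nicotinamide, a TGF-β receptor kinase inhibitor and a ROCK inhibitor. WNT3A, R-spondin1 and gastrin were added for the stomach and forskolin for the esophagus, so tissue and medium cannot be told apart.

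KLF proteins share a set of C2H2 zinc fingers at the carboxyl end that binds GC-rich and CACCC sequences in promoters and enhancers, and they differ in the part that recruits partners. KLF3, KLF8 and KLF12 recruit the corepressor CtBP. KLF9, KLF10, KLF11, KLF13, KLF14 and KLF16 bind the corepressor SIN3A, and KLF2, KLF4, KLF5, KLF6 and KLF7 are mostly described as activators that work with acetyltransferases. In stratified and intestinal epithelia KLF5 is known from proliferating cells and KLF4 from differentiating cells.

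The probes for *Klf5* and *Klf13* are shown because they read into the finger region that the family shares. They are 60 bases long, and the capitals mark the 29 bases that were identical over the 40 that aligned without a gap (72.5%), in runs of at most 8.
Klf5: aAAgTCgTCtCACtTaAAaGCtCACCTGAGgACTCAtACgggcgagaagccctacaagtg
Klf13: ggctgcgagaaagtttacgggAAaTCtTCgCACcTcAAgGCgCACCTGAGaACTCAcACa
On mouse build mm9, the files place the *Klf5* probe between chr14:99702656 and 99712388, an interval of 9733 bases and thus across an intron. The *Klf13* probe lies at chr7:71082854-71082913. Cross-hybridization between members was not tested.

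The promoters of *Klf13*, *Klf3*, *Klf2*, *Klf4* and *Klf6* are shown because *Klf13* differed between the tissues, *Klf3* held the most CACCC boxes of the 8 members with a promoter entry and the remaining genes were high together on a single array. Each is the 250 bases before the transcript start in RefSeq on GRCm38.p6. Capitals mark CACCC or its reverse complement GGGTG. The positions are *Klf13* (chr7:63938916-63939165, minus strand), *Klf3* (chr5:64803271-64803520, plus strand), *Klf2* (chr8:72318812-72319061, plus strand), *Klf4* (chr4:55532476-55532725, minus strand) and *Klf6* (chr13:5861239-5861488, plus strand).
Klf13: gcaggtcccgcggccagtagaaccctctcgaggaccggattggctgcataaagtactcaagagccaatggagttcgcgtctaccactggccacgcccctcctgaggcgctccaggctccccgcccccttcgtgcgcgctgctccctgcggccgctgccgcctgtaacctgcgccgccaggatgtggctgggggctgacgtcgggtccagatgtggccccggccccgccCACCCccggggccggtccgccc
Klf3: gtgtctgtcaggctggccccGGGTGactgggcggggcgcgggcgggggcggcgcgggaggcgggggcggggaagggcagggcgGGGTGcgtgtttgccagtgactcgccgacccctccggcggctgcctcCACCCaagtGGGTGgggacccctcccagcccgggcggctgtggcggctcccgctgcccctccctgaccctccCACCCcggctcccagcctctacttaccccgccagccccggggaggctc
Klf2: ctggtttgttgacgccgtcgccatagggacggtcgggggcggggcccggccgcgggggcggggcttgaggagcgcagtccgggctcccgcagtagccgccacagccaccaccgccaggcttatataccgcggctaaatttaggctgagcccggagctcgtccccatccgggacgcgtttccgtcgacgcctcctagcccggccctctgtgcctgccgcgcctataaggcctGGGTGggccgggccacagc
Klf4: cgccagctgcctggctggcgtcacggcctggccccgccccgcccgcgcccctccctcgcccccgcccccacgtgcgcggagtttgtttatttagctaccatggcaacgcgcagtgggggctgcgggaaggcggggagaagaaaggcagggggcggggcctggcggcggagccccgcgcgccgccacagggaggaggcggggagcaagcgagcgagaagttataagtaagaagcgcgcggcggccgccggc
Klf6: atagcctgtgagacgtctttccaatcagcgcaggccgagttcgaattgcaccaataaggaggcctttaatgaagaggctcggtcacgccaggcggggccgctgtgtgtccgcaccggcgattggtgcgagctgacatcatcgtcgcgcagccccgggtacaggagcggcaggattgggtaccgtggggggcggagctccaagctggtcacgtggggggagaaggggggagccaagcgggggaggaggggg
RefSeq entries were matched for 8 of the 10 members, all but *Klf5* and *Klf10*. CACCC was found on either strand in 6 of these 8, with 5 copies before *Klf3*, 3 before *Klf7*, 1 each before *Klf2*, *Klf9*, *Klf13* and *Klf15*, and none before *Klf4* or *Klf6*. Of all 32851 promoters of this length, 52.0% held it. The SP1-type box GGGCGG, also counted on both strands, was in 7 of 8, *Klf9* being the exception, against 32.7% of all promoters. Its copies numbered 6 before *Klf3* and 4 before *Klf4*, and GC content ran from 59.2% before *Klf7* to 78.4% before *Klf3*. GC content was not counted over all promoters, so no motif share was compared at equal GC content. The E-box CACGTG, which reads the same on both strands, was before *Klf4*, *Klf6* and *Klf15* (6.02% of all promoters). The CArG box bound by serum response factor was in none of the 8 (1.47% of all promoters), and the full cyclic AMP element TGACGTCA was in none either (1.55%).

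Of the 13 probes, 12 were well above background on all 6 arrays, and the remaining one, a *Klf13* probe, was so on the 3 esophagus arrays only. The arrays had 45.5% to 51.1% of their non-control spots well above background and no saturated spot. The tissue labels were borne out by the keratins, since *Krt5*, *Krt14*, *Krt13* and *Krt4* were higher in esophagus organoids by 7.96 to 11.93 on the log2 scale, values limited by background since *Krt5* was well above it on 1 stomach array and the others on 2, and all 6 columnar gastric markers were higher in stomach organoids. The brightest of 4 *Trp63* probes went against the other 3. Esophagus replicate 2 stood apart in its immediate early genes, and esophagus replicate 4 was the only array on its slide. Values below are log2 intensities as deposited by the authors, a difference is esophagus minus stomach, and adjusted p-values are from limma over all probes.

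A single member, *Klf13*, passed an adjusted p of 0.05 on its brightest probe, and it was higher in esophagus organoids. That is 1 of 10 genes, while 14.9% of all gene names passed in either direction, 7.15% higher in esophagus and 7.7% higher in stomach. Among gene names well above background in a tissue, as all 10 members were, 26.6% passed. The 2 tissues did not overlap for 5 of the 10, which were *Klf7*, *Klf10* and *Klf13* with all esophagus arrays above all stomach arrays and *Klf3* and *Klf9* with the reverse, against 31.6% of all gene names and 45.5% of those well above background in a tissue. With an unadjusted p under 0.05 and a 1.5-fold change, the rule of the methods, *Klf3*, *Klf7*, *Klf9* and *Klf13* passed, which is 4 of 10 against 21.7% of all gene names and 37.8% of those well above background. The median difference of the 10 members was 0.26, beside 0.03 over all gene names. Beside gene names well above background, the members' share was thus lower by adjusted p and near theirs by the other 2 rules, and no test compared these shares.

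**Figure D1:**
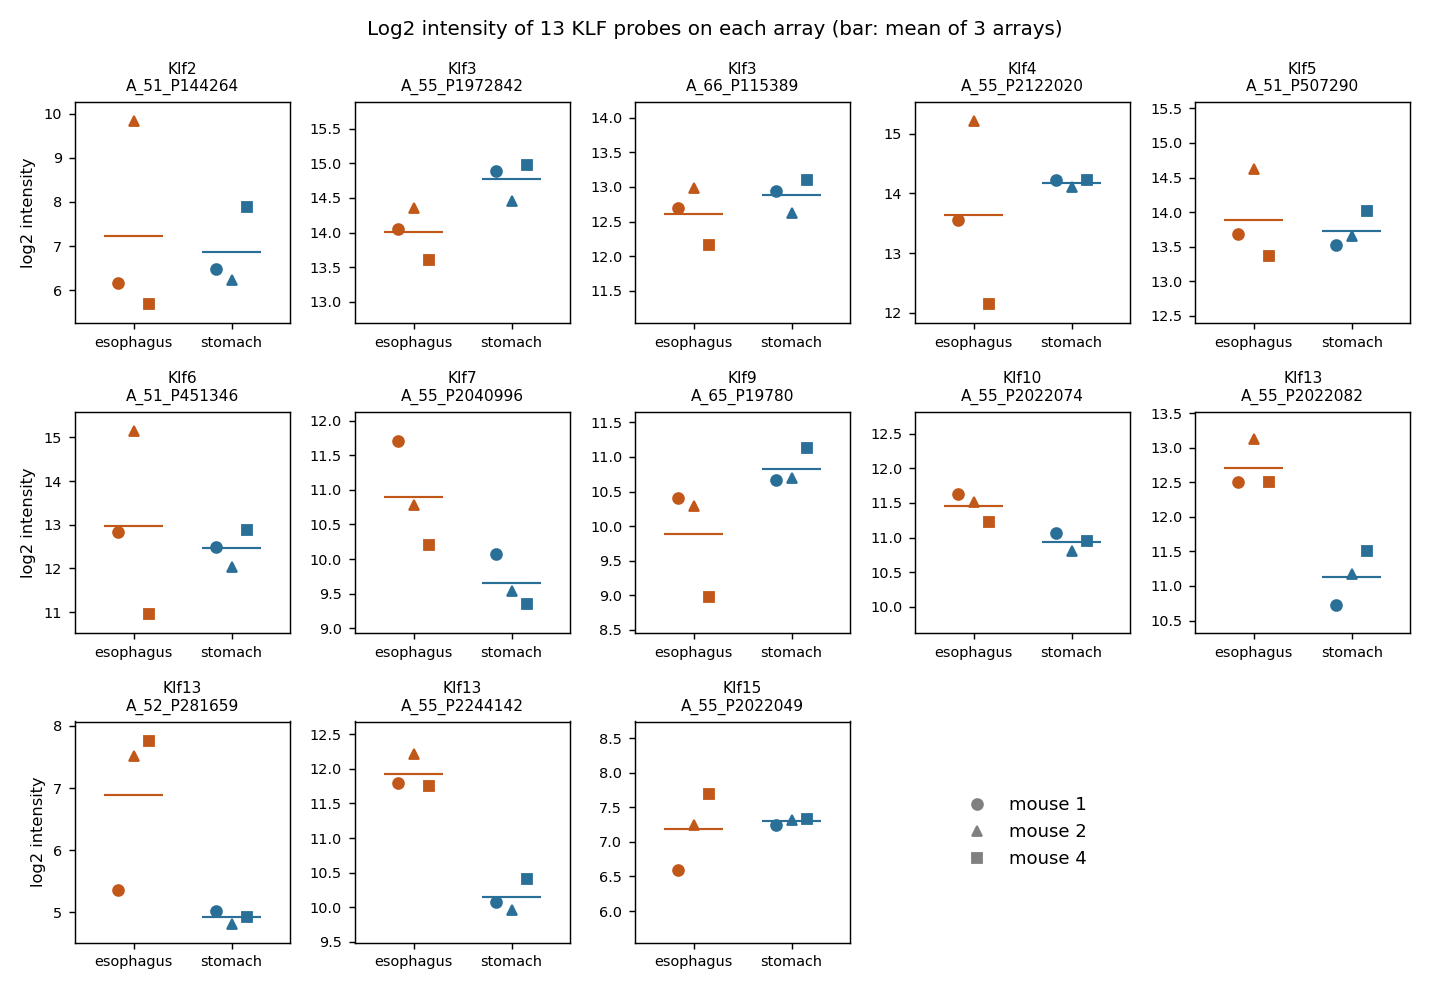
Log2 intensity (vertical axes, scaled per probe) of the 13 KLF probes on each array, with esophagus organoids at left and stomach organoids at right in each panel, symbols for the mouse and a bar for the mean of 3 arrays. All 3 Klf13 probes have every esophagus array above every stomach array. Klf2, Klf4, Klf5, Klf6 and the brightest Klf13 probe have their highest value on the esophagus array of mouse 2.

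Among the SIN3A-binding members, *Klf13*, a factor first described in erythroid cells and T lymphocytes, read 12.51, 13.12 and 12.51 in the esophagus organoids of mice 1, 2 and 4 and 10.72, 11.17 and 11.51 in their stomach organoids. Every esophagus array was above every stomach array, and within a mouse the gap was 1.79, 1.95 and 1.0. The means were 12.71 ± 0.35 and 11.13 ± 0.40 (SD, n = 3), a difference of 1.58 (SE 0.26, 95% interval 0.98 to 2.18) or 2.99-fold, with an adjusted p of 0.00574. In bulk RNA, more cells with the transcript and more transcript per cell cannot be told apart. Across 16 alternatives of processing and left-out arrays the difference stayed between 1.37 and 1.88 and the adjusted p between 0.00183 and 0.0303. The second probe, A_55_P2244142, read 11.79, 12.21 and 11.75 against 10.08, 9.96 and 10.41, and its difference was 1.77 (SE 0.19, adjusted p = 0.000722). This probe was designed on a cDNA, BC030682, and the files list it in the forward direction at chr7:71032482-71032541 (mm9) while the other 2 *Klf13* probes run in reverse, so whether it reads the *Klf13* transcript is not settled here. The third probe, A_52_P281659, read 5.36, 7.52 and 7.76 in esophagus and 5.03, 4.82 and 4.92 in stomach, where it was not well above background. The probe is listed under a separate transcript entry, and its own interval of 32932 bases crosses an intron. Esophagus organoids were at least 3.89-fold higher on it, with an adjusted p of 0.0676. Without esophagus replicate 1, which read nearest to the stomach arrays, it was at least 6.58-fold (adjusted p = 8.69e-05). The bound takes, for each stomach array, the higher of the probe's own signal and the lowest signal among probes well above background. With the software's background-subtracted signal the same probe was at least 25.9-fold higher (adjusted p = 0.00196). Without esophagus replicate 4 it was at least 2.87-fold higher (adjusted p = 0.152), and it passed in 4 of 15 alternatives.

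*Klf10*, a gene that TGF-β induces early, read 11.63, 11.51 and 11.23 in esophagus and 11.07, 10.81 and 10.95 in stomach. The tissues did not overlap and each mouse had the higher value in esophagus, but the gap was small. The difference was 0.52 (95% interval 0.14 to 0.90), with an adjusted p of 0.0911. *Klf9*, a gene that glucocorticoids induce, read 10.41, 10.29 and 8.98 in esophagus and 10.66, 10.70 and 11.13 in stomach. It was lower in esophagus in all 3 mice, mostly in mouse 4, where the difference was -2.15 against -0.25 and -0.41 in mice 1 and 2. Over all arrays it was -0.94 (95% interval -1.80 to -0.08, adjusted p = 0.171), and without esophagus replicate 4 it was -0.48 (adjusted p = 0.21).

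*Klf3*, the CtBP-recruiting repressor of the group, read 14.05, 14.35 and 13.61 in esophagus and 14.89, 14.45 and 14.97 in stomach on its brightest probe. The tissues did not overlap, although in mouse 2 they were only 0.09 apart. The difference was -0.76 (95% interval -1.31 to -0.22), with an adjusted p of 0.0818. The other probe, A_66_P115389, read 12.69, 12.99 and 12.16 against 12.94, 12.63 and 13.10 and overlapped, with a difference of -0.28 (adjusted p = 0.571). The 2 probes lie 2623 bases apart on chr5 (mm9) from the end of the first to the start of the second, and their differences share a sign.

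*Klf7*, a factor known from neurons and fat cells, read 11.71, 10.78 and 10.20 in esophagus and 10.07, 9.54 and 9.35 in stomach. It was higher in esophagus in each mouse, by 1.63, 1.24 and 0.85. The difference was 1.24 (95% interval 0.37 to 2.12) or 2.37-fold, and its adjusted p of 0.0783 missed the threshold. With the mouse as a block, which the shared animals allow, the same difference had an adjusted p of 0.0153. It also passed with dim probes removed (0.0492), with trended and robust variances (0.0495) and without esophagus replicate 4 (0.0224), which equals the slide as a block. In the other 10 of 15 alternatives it did not pass, with an adjusted p of up to 0.231 (without stomach replicate 2).

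Among the esophagus arrays, *Klf2*, *Klf4* and *Klf6* spread the most of the 10 members, with SDs of 2.26, 1.53 and 2.10. Each SD was larger than the gene's mean difference between the tissues. On brightest probes this was also so for *Klf5* (SD 0.66) and *Klf15* (SD 0.55), whose differences were 0.16 and -0.12. *Klf4* read 13.56, 15.21 and 12.15 in esophagus and 14.22, 14.10 and 14.23 in stomach. The stomach arrays were within 0.13 of each other while esophagus replicate 2 was above all of them and the other 2 esophagus arrays below. *Klf6*, which was first described as a binder of core promoters, read 12.84, 15.15 and 10.96 against 12.50, 12.03 and 12.89. *Klf2*, which endothelial cells induce under flow through MEK5 and ERK5, read 6.16, 9.83 and 5.69 against 6.48, 6.24 and 7.88. Esophagus replicate 2 was the highest of the 6 arrays for all 3 genes, as it was for *Klf5* and *Klf13*, or 5 of the 10 members. Over the mean of the log2 values of the other 2 esophagus arrays it was 14.9-fold higher for *Klf2*, 9.53-fold for *Klf6* and 5.12-fold for *Klf4*. *Klf5* followed with 13.68, 14.63 and 13.36 in esophagus, 2.15-fold higher on replicate 2, and 13.52, 13.66 and 14.01 in stomach.

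*Klf2*, *Klf4*, *Klf5* and *Klf6* were the members at least 2-fold higher on that array than the mean of the other 2 esophagus arrays, or 4 of 10, while 3.4% of gene names well above background in a tissue were. That count was made after the values had been seen. The tissue differences were 0.36 for *Klf2* (95% interval -2.01 to 2.74, adjusted p = 0.887), -0.54 for *Klf4* (-2.06 to 0.98, 0.703), 0.16 for *Klf5* (-0.59 to 0.91, 0.839) and 0.51 for *Klf6* (-1.58 to 2.61, 0.811). Without esophagus replicate 2 they were -0.94, -1.33, -0.21 and -0.57, all lower in esophagus, with adjusted p-values of 0.352, 0.098, 0.681 and 0.647. Without esophagus replicate 4 they were 1.13, 0.21, 0.42 and 1.52, all higher in esophagus, with adjusted p-values from 0.203 to 0.845. The direction for each of these genes thus hung on which of 2 arrays was kept.

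The immediate early genes, which cells induce within minutes of a stimulus, had the same array highest for 8 of 8. *Fos*, the AP-1 subunit, read 9.41, 14.59 and 9.21 in esophagus and 10.72, 10.80 and 10.69 in stomach. *Fosb*, a relative of it, read 7.06, 15.66 and 6.90, and *Atf3*, a stress-induced factor, read 7.64, 14.86 and 5.21. *Jun* was ordered as *Klf4* and *Klf6* were, with 12.81, 15.74 and 9.89, and so was *Lor*, a cornified envelope protein listed among reported KLF4 or KLF5 targets, with 14.44, 16.94 and 10.38. Of the 19 such targets on the array, 4 had replicate 2 as the highest esophagus array and 2 were at least 2-fold higher on it. At least a 2-fold excess on replicate 2 was seen in 6 of the 8 immediate early genes. The part of the array's handling, RNA or cells in these values was not tested. On the stomach array of day 7, from mouse 4, *Klf2* was 1.52 above the mean of the other 2 stomach arrays and *Atf3* read 10.36 against 7.61 and 7.66. The rest of the immediate early genes differed there from the mean of the other 2 stomach arrays by -0.78 (*Ier2*) to 0.40 (*Fosb*), with *Fos* at -0.07 and *Jun* at -0.37. Esophagus replicate 4 was the lowest esophagus array for 9 of the 10 members, among them *Klf13*, which read 12.51 on replicates 1 and 4. That array was also lowest for 7 of 8 immediate early genes and 12 of 19 reported targets. The same held for 6 of 7 glucocorticoid response, 3 of 4 TGF-β response and 10 of 15 clock genes. It was lowest for 3 of 5 genes of the MEK5 and ERK5 route and 9 of 16 other KLF and SP genes. For corepressors and coactivators the count was 3 of 10, and for protein turnover genes 2 of 6. The share over all gene names was not counted.

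**Figure D2:**
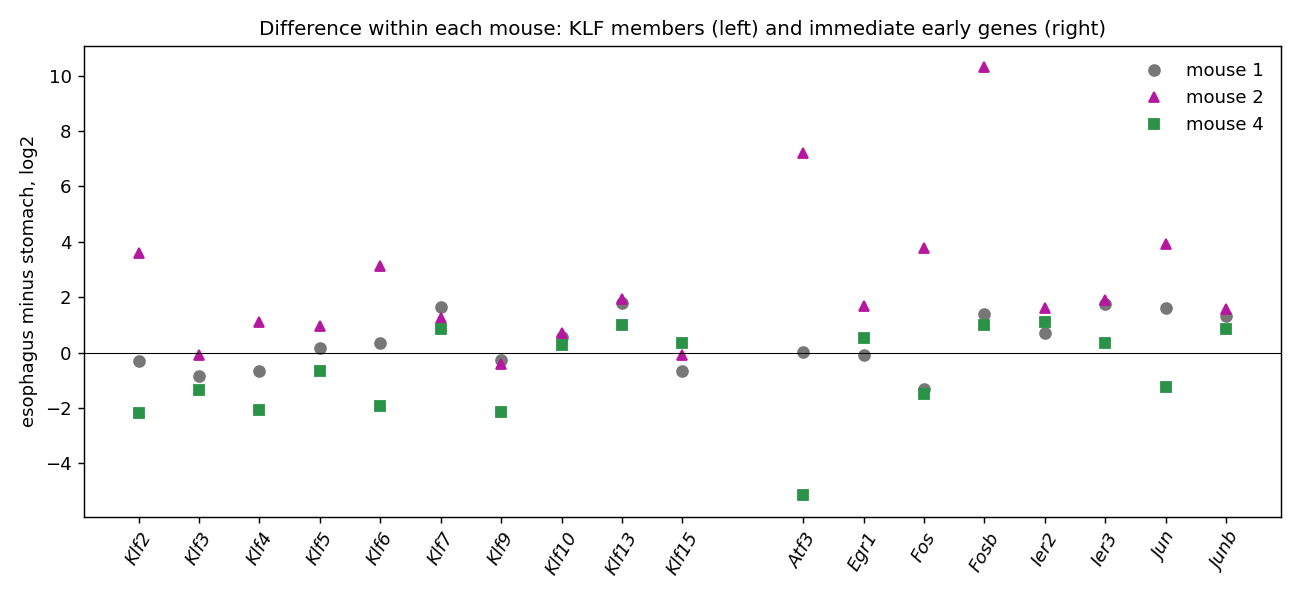
Esophagus minus stomach (vertical axis, log2) within mouse 1, 2 and 4 for the brightest probe of the 10 KLF members and 8 immediate early genes. Mouse 2 is highest for Klf2 at 3.59 and Klf6 at 3.13 as it is for Fos, Fosb and Jun, while mouse 4 is at -2.19 and -1.92 for Klf2 and Klf6.

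**Figure D3:**
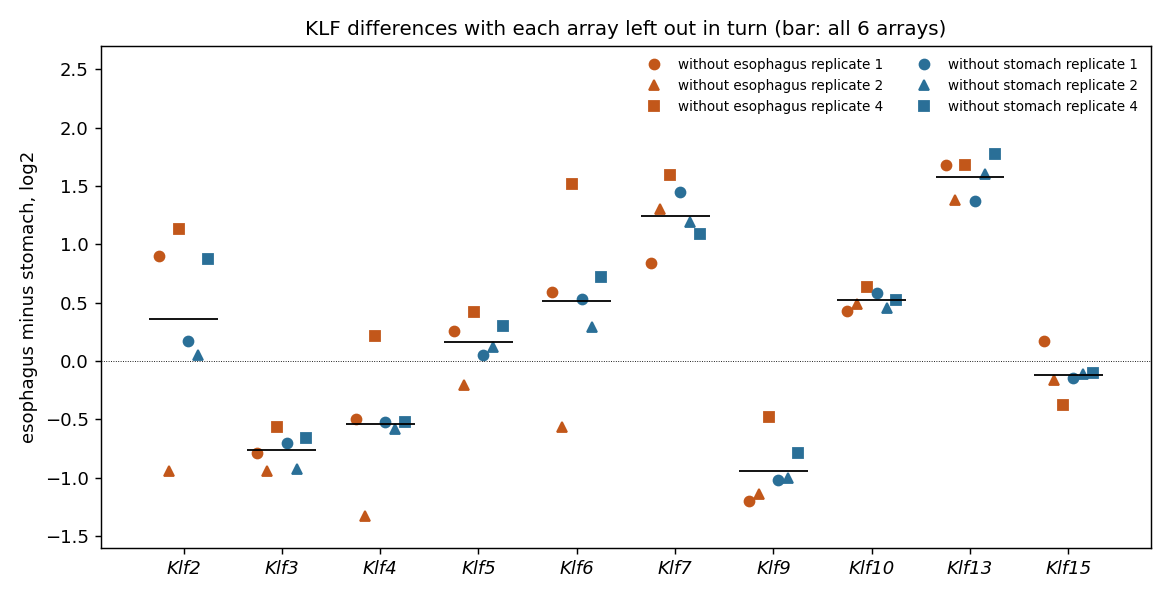
Esophagus minus stomach (vertical axis, log2) for the brightest probe of each KLF member with all 6 arrays (bar) and with 1 array left out (symbols, colored by tissue). Klf13 stays between 1.37 and 1.77, whereas Klf2, Klf4, Klf5, Klf6 and Klf15 cross 0.

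*Klf2* and *Klf4* are prominent in endothelium, so its markers were read too. No array had *Cdh5* well above background, *Tek* was so on 1 of 6, and *Pecam1* and the brightest *Kdr* probe were so on all 6. The other *Kdr* probe was so on 1 stomach array. The 4 markers summed to an intensity of 458 to 664 in esophagus and 517 to 551 in stomach. Most of that sum was the brightest *Kdr* probe, at log2 values of 8.44 to 9.12 in esophagus and 8.52 to 8.76 in stomach. None of the 4 markers passed the limma test. At an unadjusted p under 0.05, 1 of the 4 passed in limma, *Cdh5*. Of all gene names, at least 21.7% did, which is the share that also changed 1.5-fold. Of 5 fibroblast markers, *Pdgfra* and *Pdgfrb* were well above background on no array, *Col1a1* and *Col1a2* on 1 stomach array each and *Col3a1* on 1 esophagus and 2 stomach arrays. Of 4 immune markers, *Ptprc* was so on no array, while *Cd3e*, *Cd68* and *Itgam* were so on all 6. The brightest *Itgam* probe was higher in stomach (-2.62, adjusted p = 0.000662), its other 2 probes were well above background on no array (-0.02 and -0.06), and the other markers of both lists did not pass. Of 3 smooth muscle markers, *Acta2* read 6.69 on esophagus replicate 2 and 4.74 to 4.97 on the other arrays, *Des* read 4.66 on that array and 4.70 and 4.80 on the other esophagus arrays, and no array had *Myh11* well above background.

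*Klf15*, a glucocorticoid-induced factor of metabolic tissues, read 6.59, 7.25 and 7.69 in esophagus and 7.24, 7.32 and 7.33 in stomach. The esophagus arrays lay on both sides of the stomach arrays, and the difference was -0.12 (95% interval -0.74 to 0.50, adjusted p = 0.853).

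The other 16 KLF and SP genes on the array had 6 higher in esophagus and 1 higher in stomach, or 43.8% against 14.9% of all gene names, with a median difference of 0.52. Of the 11 that were well above background in a tissue, 6 passed, against 26.6% of such gene names. The CtBP-recruiting relatives of *Klf3* were both higher in esophagus. *Klf12* read 6.48, 7.18 and 6.35 against 4.49, 4.75 and 4.67, at least 4.10-fold higher (adjusted p = 0.000963), and *Klf8* was at least 1.84-fold higher (adjusted p = 0.0247). Neither was well above background on a stomach array. *Klf14* also passed but no array had it well above background, so no fold is given. *Sp6*, a factor of tooth and skin epithelium, was 6.55-fold higher in esophagus (adjusted p = 0.000225), *Sp3* 2.01-fold (adjusted p = 0.00724) and *Sp8* also passed (adjusted p = 0.0219). *Sp8* was well above background on 1 of 3 stomach arrays, and its other probe was so on no array. *Sp5*, a target of WNT signaling, read 10.70, 10.90 and 11.34 in stomach organoids and was not well above background in esophagus organoids, a difference of at least 72.5-fold (adjusted p = 7.2e-07).

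**Figure D4:**
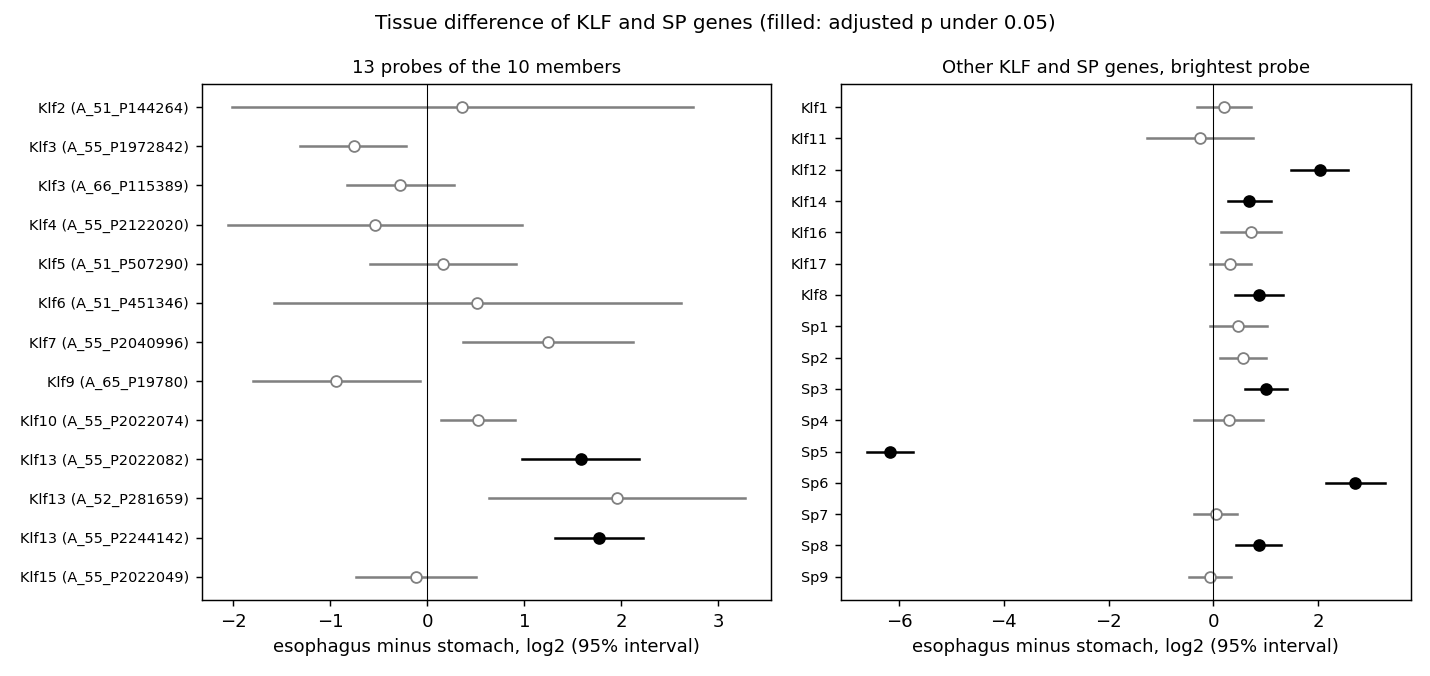
Esophagus minus stomach (horizontal axes, log2) with 95% intervals for the 13 probes of the 10 members at left and the brightest probe of 16 other KLF and SP genes at right, filled where the adjusted p was under 0.05. Among the members only 2 Klf13 probes are filled, and at right Sp5 lies at -6.18 and Sp6 at 2.71.

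Of the 10 corepressors and coactivators of the family, *Hdac2* (0.77, adjusted p = 0.0367) and *Sin3b* (0.64, adjusted p = 0.0351) were higher in esophagus and *Crebbp*, the acetyltransferase CBP, was higher in stomach (-1.08, adjusted p = 0.0416), or 30.0% of the list beside 14.9% of all gene names and 26.6% of those well above background. The other *Crebbp* probe was at 0.24 (adjusted p = 0.436) and the other *Sin3b* probe at 0.44 (adjusted p = 0.266). *Sin3a* and *Ctbp1* differed by 0.31 and 0.15 (adjusted p = 0.314 and 0.756). None of 6 genes for the turnover of KLF proteins passed, among them the ubiquitin ligase *Wwp1* at -0.65 (adjusted p = 0.0702) and *Fbxw7* at -0.55 (adjusted p = 0.0977) on their brightest probes. At an unadjusted p under 0.05, 2 of these 6 passed in limma. Of gene names well above background, at least 37.8% did, which is the share that also changed 1.5-fold.

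Of 19 reported KLF4 or KLF5 targets on the array, 4 were higher in esophagus and 2 in stomach, with a median difference of 0.19. That is 31.6%, beside 14.9% of all gene names and 26.6% of those well above background. Higher in esophagus were the keratin *Krt4* (7.96) and the cross-linking enzyme *Tgm1* (7.64), each well above background on 2 of 3 stomach arrays, *Lor* (6.98) and the growth factor receptor *Egfr* (1.11). Higher in stomach were the simple epithelial keratin *Krt19* (-5.43) and *Sprr2a1*, which was not well above background in esophagus (at least 2.92-fold) and whose close copies *Sprr2a2* and *Sprr2a3* differed by -0.21 and -0.56 (adjusted p = 0.553 and 0.0909) on their brightest probes. A second *Sprr2a3* probe was higher in stomach (-1.72, adjusted p = 0.0422). The involucrin gene *Ivl* differed by 0.05 and *Cdkn1a*, the cell cycle inhibitor p21, by 0.79 (adjusted p = 0.96 and 0.398).

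Genes of the routes known to control members were read beside the same 14.9% of all gene names and 26.6% of those well above background. Of 7 glucocorticoid response genes, *Sgk1* was higher in esophagus (3.58, adjusted p = 0.00077), which is 14.3% of the list, while *Fkbp5* was at -1.17 (adjusted p = 0.0586). Of 4 TGF-β response genes, 1 (25.0%) passed, *Tgfbi*, which was higher in esophagus, at least 492-fold (adjusted p = 3.69e-07). In other tissues *Klf9*, *Klf10* and *Klf15* follow the circadian clock. Of 15 clock genes, *Hlf* (at least 42.7-fold), *Clock* (2.13) and *Cry1* (0.77) were higher in esophagus and 12 did not pass, a share of 20% called. *Cry1* was well above background on 1 of the 3 stomach arrays. A second probe of *Nr1d2*, counted among the 12 by its brightest probe, was higher in esophagus (0.70, adjusted p = 0.0481). Of 5 genes of the MEK5 and ERK5 route, *Mef2a* was higher in esophagus (1.05, adjusted p = 0.0156) and *Mef2d* in stomach (-1.19, adjusted p = 0.0112) on their brightest probes, or 40.0% of the list. Their other probes did not pass, with *Mef2d* at -0.01 and 0.19 (adjusted p = 0.986 and 0.544) and *Mef2a* at 0.96 and 0.21 (adjusted p = 0.116 and 0.576). *Mapk7*, which encodes ERK5, was at 0.53 (adjusted p = 0.0855). Of the 8 immediate early genes, *Ier3* (1.34, adjusted p = 0.039) and *Junb* (1.26, adjusted p = 0.0187) were higher in esophagus, or 25.0%.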

How the data were processed

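RNA of mouse organoids was labeled with Cy3 and hybridized to 6 single-color Agilent mouse 8x60K arrays. The authors read the spots with Feature Extraction (version 11.5.1.1), and the deposited scanner files hold raw intensities, a background-subtracted intensity and flags. The deposited table holds the authors' background-corrected and quantile-normalized log2 values, which were used here. They were rebuilt to a median absolute difference of 0.00433 from median intensities by normexp (offset 15) and quantile normalization. The table leaves 2029 cells empty, all of them spots marked as outliers.

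In R 4.3.3, spots were averaged per probe, and lmFit and eBayes of limma 3.58.1 were run on esophagus against stomach with no block term, and p-values were adjusted by Benjamini and Hochberg's method across 55681 probes. A gene was represented by its brightest probe. The script was tested on simulated data. Per the labels, the 2 arrays of a number come from the same mouse, so the numbers pair them. Deviations of same-mouse arrays from their tissue means correlated with r = 0.025, 0.012 and -0.00793. Those of different mice ran from -0.0725 to 0.0404. Signal over background and the number of arrays limit precision. For 3 arrays a tissue, the smallest exact permutation p is 0.1. Alternatives were other background corrections and scalings, outlier-marked spots kept, dim probes removed, averaged probes, trended and robust variances, the mouse or slide as a block, the methods' threshold and each array left out.

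The members and the gene lists were chosen with earlier results of these data known. By rule, every member probe is named, and of each list up to 4 passing genes a direction with the largest change, plus well-known genes given for their function. Genes of the immediate early list and *Lor* were also named after their values were seen. Motifs were counted in Python 3.11.15.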

Additional observations from a re-analysis of the deposited data

How the results depend on the processing

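*Klf13* was the 1 member called in every alternative tried. The count of members called was 2, with *Klf7* added, with dim probes removed, with trended and robust variances, with the mouse as a replicate block and with the slide as a block, which equals leaving out esophagus replicate 4, and 4 under the unadjusted p with a 1.5-fold change. With 1 array left out it was 1 to 2. The replicate block changed no other member's call. The count over the other family and pathway lists was 25, and with 1 array left out it was 14 (without stomach replicate 1) to 28 (without esophagus replicate 4). Without stomach replicate 2 it was 16. Of all 55681 probes, 3307 were called higher in esophagus and 3463 higher in stomach. Those counts were 1794 and 2297 without stomach replicate 1 and 1804 and 2348 without stomach replicate 2. Without esophagus replicate 4 they were 3094 and 3195. The bound of the third *Klf13* probe was 25.9-fold with the background-subtracted signal scaled to the 75th percentile and 25.8-fold with it quantile normalized, against 3.89-fold. It was lowest, at 2.62-fold, with mean intensities and a normexp offset of 50. With 1 array left out the bound ran from 2.87-fold (without esophagus replicate 4) to 6.58-fold (without esophagus replicate 1). The signs of members that did not pass turned as follows. The second *Klf3* probe was at 0.03 under 75th percentile scaling, which moved the median of all probes from 0.02 to 0.19, and *Klf4* was at 0.21 with the slide as a block. With 1 array left out, *Klf2* ranged from -0.94 to 1.13, *Klf4* from -1.33 to 0.21, *Klf5* from -0.21 to 0.42, *Klf6* from -0.57 to 1.52 and *Klf15* from -0.38 to 0.17. The cause was not tested. Where an array is left out, its tissue keeps 2 arrays, and the spread is pooled with the other tissue.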
